A study of Homo sapiens with 12 samples.

Results

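Double knockdown of SIRT1 and IGF2BP2 was examined for departures from additivity in MDA-MB-231, a human breast cancer cell line that lacks estrogen and progesterone receptors and has a mesenchymal character. All 12 libraries of the series, of 12 in all, entered this comparison as a 2 by 2 design with 3 libraries in each of 4 groups. Control cells carried a sham hairpin RNA, SIRT1 KD cells a hairpin RNA against SIRT1, IGF2BP2 KD cells a hairpin RNA against IGF2BP2, and double KD cells hairpins against both. In every group, control included, the hairpins came by lentivirus, made in the embryonic kidney line HEK-293T, and the cells were kept under puromycin. The sources used here do not say how many hairpins were used per gene, whether the single KD cells also carried a sham hairpin, or whether the 3 runs of a group were separate infections. The p-values therefore measure the spread between these runs and no more. The interaction of a gene is the difference of double KD minus SIRT1 KD, less the difference of IGF2BP2 KD minus control, on the scale of log2(normalised read count + 1). It is 0 where the 2 knockdown changes add up, above 0 where the double KD lies above their sum and below 0 where it lies below.

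SIRT1 is an NAD-dependent deacetylase that removes acetyl groups from histones and from many transcription factors. IGF2BP2 is an RNA-binding protein that holds on to transcripts, many of them carrying the m6A mark, and is known to stabilise them. Because one acts mainly on proteins and chromatin and the other on RNA, their knockdowns can meet at the same transcript by separate steps, and a 2 by 2 design measures whether their effects on it then combine as independent factors would. Additivity on a log scale means that each knockdown multiplies the level by the same factor whether or not the other is present.

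Double KD replicate 2 was the shallowest library, with 15243152 assigned reads, and the other 11 had 19522606 to 22509142. It stood apart: its log2 values had a standard deviation (SD) of 0.478 to the mean of its partners, against 0.273 to 0.379 in the other 11, and 1.18% of its reads were mitochondrially encoded, where the others had 1.99% to 2.57%. The test of each gene and the counts of each gene list were therefore also computed without it. The patterns of change against control, the comparisons of backgrounds and the 3′ UTR shares below come from all 12 libraries. Mesenchymal markers of MDA-MB-231 cells summed to 6415 to 7779 CPM (counts scaled to the library's total), epithelial markers to 564 to 824 CPM, fibroblast markers to 24.0 to 55.1 CPM and immune markers to at most 2.05 CPM. The epithelial sum came mostly from KRT19 (327 to 536 CPM) and CLDN4 (150 to 283 CPM). CDH1 was at most 1.23 CPM and ESR1 at most 0.38 CPM. Each value is a share of the reads from a bulk culture, so fewer cells expressing a transcript and less of it per cell cannot be told apart. The sources used here do not give strand use in the counting, so genes that overlap a gene on the opposite strand may hold reads of that partner. Among them are BSN, SYP, HAS2, SOX4, NEDD9, CAVIN2, SPRY4, RFC4, RMI2 and RPS4X. IGF2BP2, RPN2, HMGA2, DUSP6, ITGA5, TGFBR2, PCLO, TIMP3, ALDOC and BBC3 also overlap such a gene, and these names are not a complete list.

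The 2 targeted transcripts did not depart measurably from additivity. SIRT1 was at 799, 841 and 863 normalised counts in control, 547, 496 and 539 in SIRT1 KD, 763, 691 and 730 in IGF2BP2 KD, and 396, 380 and 436 in double KD libraries. The double KD libraries were the lowest of all 12, and their difference from SIRT1 KD was called (-0.38, limma adjusted p = 0.00157). An additive double KD would lie at 460 normalised counts, and the interaction was -0.19 (95% interval -0.42 to 0.05, limma adjusted p = 0.396). IGF2BP2 was at 3045, 3055 and 3127 normalised counts in control, 3791, 3759 and 3721 in SIRT1 KD, 709, 841 and 736 in IGF2BP2 KD, and 992, 715 and 884 in double KD libraries. It was called higher in SIRT1 KD than in control (0.29, limma adjusted p = 0.0274). The IGF2BP2 KD and double KD libraries overlapped, and the interaction was -0.12 (-0.40 to 0.16, adjusted p = 0.696). On linear counts, where additivity means that the absolute losses add, IGF2BP2 did pass the test (adjusted p = 0.0087).

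Of 17576 genes tested, 503 (2.86%) departed from additivity at a limma adjusted p under 0.05, of which 480 were protein-coding. The double KD lay above the sum of the single changes for 299 genes (1.70%) and below it for 204 (1.16%). Departures of at least 1 on the log2 scale were found for 52 genes, 22 above and 30 below the sum. In all 503 genes each of the 3 double KD libraries lay on the side of the interaction. The genes were selected on the mean of these same libraries, which largely brings this about, so it is no further support. Centring each library on its median gave 574 genes and turned the balance, with 194 above and 380 below the sum (33.8% above, against 59.4%), so the balance between directions depended on the scaling. Without double KD replicate 2 the test called 1771 genes (10.1%), 1065 above (6.06%) and 706 below (4.02%) the sum. These included 502 of the 503, each in the same direction, and RRM2 alone lost its call (interaction 0.51, adjusted p = 0.0687). Leaving out another library gave fewer genes in most cases: 256, 113 and 185 without control replicate 1, 2 or 3, 182, 239 and 174 without SIRT1 KD replicate 1, 2 or 3, and 344, 250 and 165 without IGF2BP2 KD replicate 1, 2 or 3. It was 1062 and 532 when double KD replicate 1 or 3 was left out. A set of 105 genes, 58 above and 47 below the sum, was called in all 12 of these fits and with all libraries, and edgeR's quasi-likelihood test also called all 105. Genes of that set are called stable below. Of these, 91 also passed on linear counts, and among those described below FADS2, FN1, MAD2L1, PLEKHG4, RPS4X, SCD, TGFBR2 and UHRF1 did not (adjusted p = 0.0585, 0.0844, 0.066, 0.0897, 0.0537, 0.261, 0.0783 and 0.0875). The count over all genes also hung on how gene variances were moderated, with 135 genes when limma's trend and robust settings were off (of the stable genes described below, BMP4, BSN, DUSP6, FN1, HTR1D, ITGA5, MAD2L1, SCD and UHRF1 then missed the threshold), 926 with DESeq2 and 2577 with a weight per library.

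**Figure D1:**
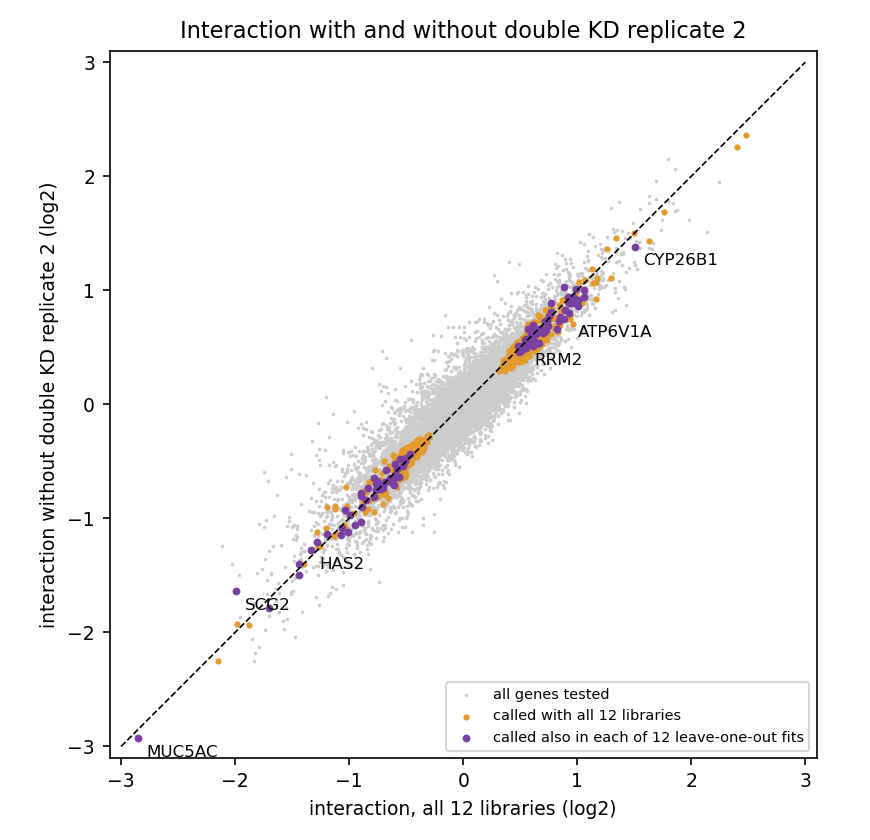
Interaction of each gene with all 12 libraries (horizontal axis, log2) against the interaction without double KD replicate 2 (vertical axis, log2), over 17576 genes in grey. Orange points are the called genes and purple points the 105 stable ones; called genes lie near the dashed line of equal values, and RRM2 is the called gene that lost its call without that library.

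Against control, 28.6% of all tested genes were called in SIRT1 KD, 16.3% in IGF2BP2 KD and 34.2% in double KD cells, and the genes that departed from additivity fell into several patterns. In 83 genes the double KD changed against control while neither single KD did, in 160 a single KD changed and the double KD did not, in 247 both a single KD and the double KD changed, and in 13 none of the 3 changes against control was called. These are 16.5%, 31.8%, 49.1% and 2.58% of the 503, where the same classes hold 11%, 13.8%, 23.3% and 51.9% of all tested genes. Among the 105 stable genes the first 3 patterns held 11, 31 and 63. Set against the sum of the single changes, the double KD change was smaller in 211 genes, larger in 101, and of the opposite sign in 191. That is 41.9%, 20.1% and 38.0% of them, beside 45.2%, 31.6% and 23.1% of all tested genes, so the share of smaller changes was near that of all genes. Over all 17576 genes the SIRT1 hairpin's change in control cells and its change in IGF2BP2 KD cells had a Pearson r of 0.59, and the IGF2BP2 hairpin's changes without and with the SIRT1 hairpin an r of 0.42; the 2 changes in each pair share no library, and genes are not independent replicates. Among the 503 genes, the SIRT1 hairpin changed 137 in the same direction in both backgrounds, 43 in opposite directions, 145 only in cells without the IGF2BP2 hairpin and 178 only in IGF2BP2 KD cells, where 31.6% of all genes were called. For the IGF2BP2 hairpin these numbers were 61, 44, 123 and 263, with 12 called in neither background. In SIRT1 KD cells 22.6% of all genes changed with it. The shares of all tested genes in these joint patterns were not computed. The counts therefore do not show that any of the patterns is more common among the 503. The interaction is the difference of these changes and uses the same libraries, so the patterns describe it and do not test it again.

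**Figure D2:**
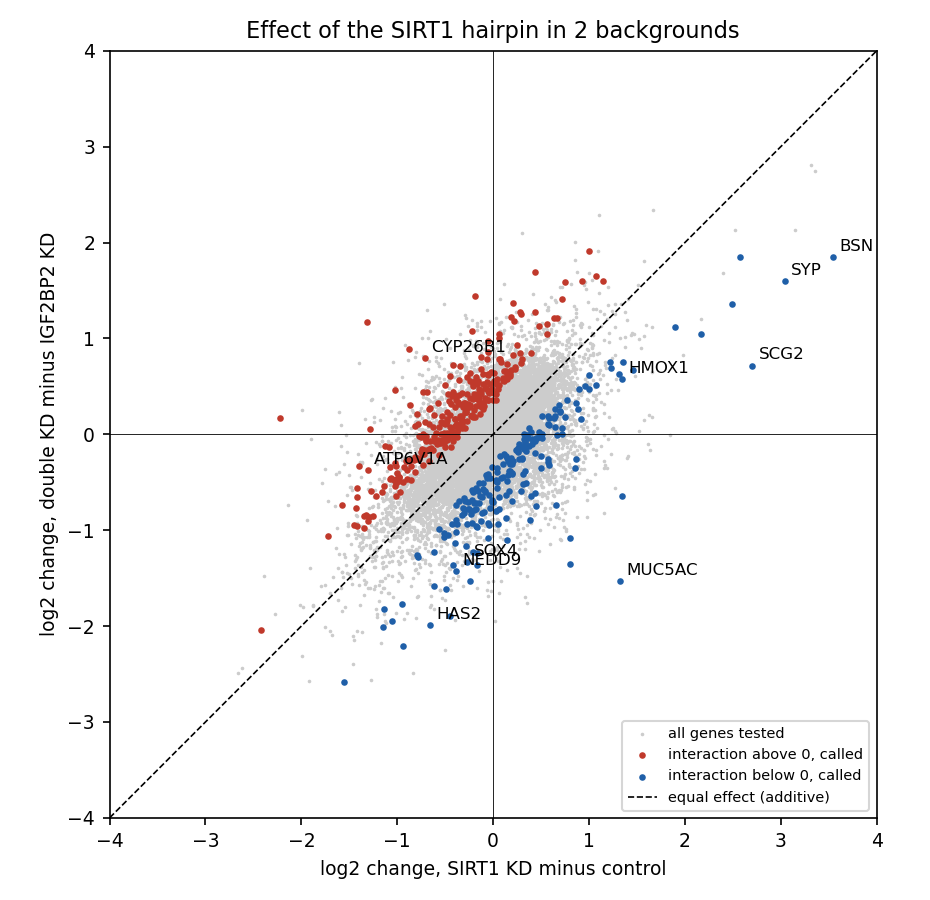
Change with the SIRT1 hairpin in control cells (horizontal axis) against its change in IGF2BP2 KD cells (vertical axis), both on the log2 scale, for all genes tested in grey. Called interactions above 0 are red and below 0 blue; points on the dashed line changed equally, MUC5AC moved up in one background and down in the other, and BSN, SYP and SCG2 rose in both but less in IGF2BP2 KD cells.

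The largest departure was that of MUC5AC (ENSG00000215182.8, chromosome 11, 1157953 to 1201138, GRCh38), a gel-forming mucin secreted by airway and stomach epithelium. It was at 204, 205 and 218 normalised counts in control, 490, 520 and 564 in SIRT1 KD, 568, 520 and 485 in IGF2BP2 KD, and 180, 200 and 164 in double KD libraries. Each single knockdown placed it above every control library, while the double KD libraries lay below all of them. The double KD change against control was small, at -0.21, and was not called (limma adjusted p = 0.11). Additive changes would have put the double KD at 1309 counts, and the interaction was -2.85 (SE 0.14, adjusted p = 1.2e-09). Without double KD replicate 2 it was -2.92.

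Among the genes with the largest departures below the sum or the smallest adjusted p were NEDD9, HAS2 and CAVIN2. NEDD9, a scaffold protein of integrin signalling, was at 996, 925 and 1015 normalised counts in control, 740, 702 and 807 in SIRT1 KD, 1273, 1300 and 1345 in IGF2BP2 KD, and 519, 417 and 530 in double KD libraries. It rose with the IGF2BP2 hairpin alone by 0.42 on the log2 scale, and with the SIRT1 hairpin already present that hairpin's change was -0.62. The interaction of NEDD9 was -1.04 (adjusted p = 4.0e-04). HAS2, which makes the matrix polysaccharide hyaluronan, was at 173, 165 and 206 normalised counts in control, 109, 116 and 118 in SIRT1 KD, 225, 194 and 250 in IGF2BP2 KD, and 58.7, 50.8 and 55.6 in double KD libraries. The double KD libraries were the lowest, at less than the additive level of 140 counts (interaction -1.34, adjusted p = 8.6e-04). CAVIN2, a coat protein of caveolae, was at 959, 982 and 980 normalised counts in control, 1243, 1232 and 1234 in SIRT1 KD, 558, 581 and 544 in IGF2BP2 KD, and 375, 390 and 419 in double KD libraries. It rose in SIRT1 KD cells, fell in IGF2BP2 KD cells and was lowest in double KD cells (interaction -0.85, adjusted p = 3.7e-04).

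Matrix genes went both ways. Of 38 mesenchymal and matrix genes tested, 3 were above the sum and 1 below, with a median interaction of 0.01 against 0.02 over all genes. Of all genes 1.70% were above and 1.16% below. Without double KD replicate 2 the list had 6 above and 4 below, where all genes had 6.06% and 4.02%. FN1, the matrix protein fibronectin, was at 19015, 16505 and 19703 normalised counts in control, 20940, 18420 and 21066 in SIRT1 KD, 12727, 15547 and 14403 in IGF2BP2 KD, and 9539, 8339 and 9617 in double KD libraries. Its double KD libraries lay below all others (interaction -0.76, adjusted p = 0.00347). ITGA5, the fibronectin receptor's alpha chain, had an interaction of 0.51 (adjusted p = 0.00974): it fell by 0.77 in SIRT1 KD cells, and its change in double KD cells was -0.21. FN1 and ITGA5 were stable, and COL4A1, a basement membrane collagen (interaction 0.51), was called in 3 of the 12 fits that leave out a library.

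**Figure D3:**
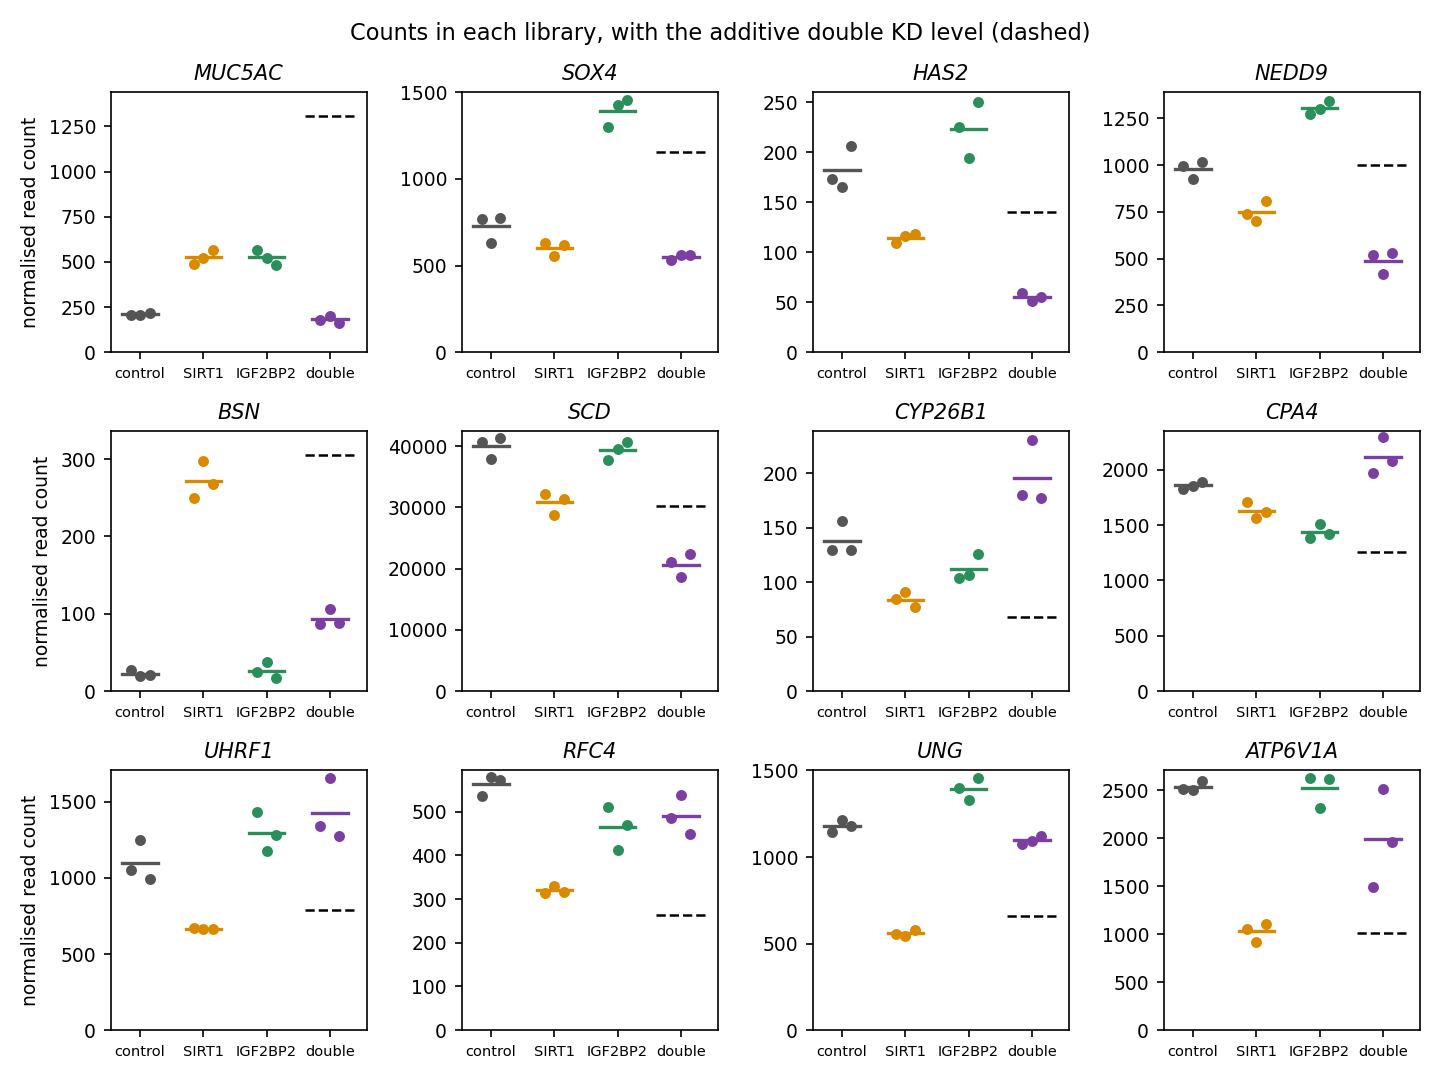
Normalised read counts of 12 genes in each library (points) with the group mean (bars), in control, SIRT1 KD, IGF2BP2 KD and double KD cells, on linear axes from 0. The dashed line is the level an additive double KD would have; double KD libraries lie below it for MUC5AC, SOX4, HAS2, NEDD9, BSN and SCD and above it for the other 6 genes.

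Signalling and transcription factor genes were among the stable departures below the sum. SOX4, a developmental transcription factor, was at 770, 633 and 777 normalised counts in control, 633, 553 and 618 in SIRT1 KD, 1300, 1428 and 1456 in IGF2BP2 KD, and 531, 563 and 561 in double KD libraries. IGF2BP2 knockdown alone raised it by 0.94 on the log2 scale. With the SIRT1 hairpin present the same knockdown left it at -0.12 (adjusted p = 0.351), and the interaction was -1.07 (adjusted p = 3.7e-04). NR4A2, an orphan nuclear receptor of the immediate-early genes, was at 278, 340 and 284 normalised counts in control, 393, 424 and 407 in SIRT1 KD, 174, 199 and 192 in IGF2BP2 KD, and 127, 103 and 106 in double KD libraries. It rose in SIRT1 KD cells and was lowest in double KD cells (interaction -1.19, adjusted p = 6.7e-04). RASD1, a Ras-related protein induced by glucocorticoids, was at 434, 412 and 417 normalised counts in control, 424, 336 and 370 in SIRT1 KD, 380, 473 and 444 in IGF2BP2 KD, and 167, 203 and 178 in double KD libraries. Only the double KD libraries were low, and the interaction was -1.07 (adjusted p = 0.00132). FST, follistatin, which binds and blocks activins, was at 763, 921 and 826 normalised counts in control, 930, 908 and 913 in SIRT1 KD, 480, 496 and 497 in IGF2BP2 KD, and 255, 316 and 239 in double KD libraries. With the IGF2BP2 hairpin it fell by 0.76 on the log2 scale in the absence of the SIRT1 hairpin and fell by 1.77 in its presence (interaction -1.01, adjusted p = 8.6e-04).

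Of 14 EGF receptor ligands, receptors and regulators tested, 2 were below the sum and 0 above, where all genes had 1.16% below and 1.70% above. Without double KD replicate 2 the list had 1 above and 3 below, where all genes had 6.06% and 4.02%. SPRY4, a Sprouty protein that restrains receptor tyrosine kinase signalling, was at 2773, 2676 and 2698 normalised counts in control, 4567, 4523 and 4341 in SIRT1 KD, 2300, 2591 and 2421 in IGF2BP2 KD, and 2395, 2513 and 2391 in double KD libraries. It was high in SIRT1 KD libraries only, and its interaction was -0.72 (adjusted p = 4.0e-04). SPRY2 (interaction -0.46, adjusted p = 0.0134) was likewise highest in SIRT1 KD libraries; it lost its call without control replicate 2, SIRT1 KD replicate 3 or IGF2BP2 KD replicate 3 (adjusted p = 0.0587, 0.0528 and 0.0532). Looked up after the values were seen, SPRY1 was also stable, at -0.88 (adjusted p = 0.00167). DUSP6, a phosphatase that switches off the kinase ERK, was at 2357, 2130 and 2404 normalised counts in control, 2375, 2245 and 2461 in SIRT1 KD, 1761, 1686 and 1721 in IGF2BP2 KD, and 1207, 1044 and 1261 in double KD libraries. Its double KD libraries were the lowest (interaction -0.60, adjusted p = 0.00697). Of 34 immediate-early and heat-shock genes tested 4 were below the sum, NR4A1 and DUSP4 being the other two, and 1 was above it, JUN at 0.47 (6 below and 7 above without double KD replicate 2). In the TGF-beta, BMP and Hippo list 3 of 37 were above and 2 below (6 and 3 without double KD replicate 2). The shares of all genes given beside the EGF receptor list apply to these lists as well. The ligand BMP4 (-0.61, adjusted p = 0.00791) and the receptor TGFBR2 (-0.46, adjusted p = 0.00863) were both below the sum and stable. They differed in form: BMP4 changed by -0.62 in SIRT1 KD, 0.40 in IGF2BP2 KD and -0.83 in double KD cells, and TGFBR2 by 0.69, 0.33 and 0.56.

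Some neuronal genes that rose with the SIRT1 hairpin rose less when IGF2BP2 was also knocked down. Of 19 neuronal and vesicle-release genes tested, 6 were below the sum and 0 above (31.6% called, against 1.16% of all genes below the sum). Their median interaction was -0.51. The median change was 1.03 in SIRT1 KD and 0.75 in double KD cells. Part of this list had been chosen for its rise in SIRT1 KD libraries, so its count is not independent evidence. BSN, a scaffold of the presynaptic active zone, was at 27.8, 19.6 and 20.3 normalised counts in control, 249, 298 and 267 in SIRT1 KD, 25, 37.2 and 17.3 in IGF2BP2 KD, and 87.2, 106 and 88.6 in double KD libraries. The double KD libraries lay above control and below SIRT1 KD without overlap (interaction -1.70, adjusted p = 0.00759). SYP, the synaptic vesicle protein synaptophysin, was at 23, 14.9 and 24.1 normalised counts in control, 170, 158 and 196 in SIRT1 KD, 25.9, 24.1 and 24 in IGF2BP2 KD, and 71.2, 82.3 and 76.3 in double KD libraries, with an interaction of -1.44 (adjusted p = 0.00697). SCG2, a secretory granule protein, was at 55.5, 50.4 and 51.1 normalised counts in control, 358, 317 and 366 in SIRT1 KD, 39.2, 40.2 and 39.3 in IGF2BP2 KD, and 82.8, 39.8 and 85.5 in double KD libraries. Double KD replicate 2 was at the IGF2BP2 KD level while its partners lay above control, and the interaction was -1.99 with it and -1.63 without it. PCLO, the partner scaffold of BSN, had an interaction of -1.12 (adjusted p = 0.0134), lost without control replicate 2 (adjusted p = 0.0543). CPLX1, a regulator of vesicle fusion, and DISP2 had interactions of -1.13 and -0.72, and REST, the repressor of neuronal genes, one of 0.07 that was not called (adjusted p = 0.829). BSN, SYP, SCG2 and DISP2 were stable. Without double KD replicate 2 the list held 10 genes below the sum and 1 above, where all genes had 4.02% and 6.06%.

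DNA replication genes departed in the other direction. Of 43 tested, 17 were above the sum and 0 below (39.5% called, against 1.70% of all genes above the sum), all 43 had a positive interaction, and the median was 0.43. The median change against control was -0.34 in SIRT1 KD, 0.00 in IGF2BP2 KD and 0.10 in double KD cells, so the median fall with the SIRT1 hairpin alone was not there with both hairpins. The called members were spread over the steps of replication. Origin licensing and the replicative helicase held CDC6 (0.68), MCM3 (0.55), MCM4 (0.57), MCM6 (0.61), MCM10 (0.76), GINS1 (0.62) and GINS2 (0.74). DNA synthesis held the primase PRIM1 (0.76), the sliding clamp PCNA (0.67), its loader RFC4 (0.90) and the polymerase subunit POLD3 (0.43). Nucleotide supply held RRM1 (0.52) and RRM2 (0.55), and chromatin copying held CHAF1B (0.56), DNMT1 (0.32) and UHRF1 (0.84). Values in brackets are interactions on the log2 scale.

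RFC4 (chromosome 3, 186789880 to 186807058) was at 537, 580 and 574 normalised counts in control, 314, 330 and 317 in SIRT1 KD, 512, 412 and 471 in IGF2BP2 KD, and 487, 539 and 448 in double KD libraries. The double KD libraries overlapped those of IGF2BP2 KD and lay above every SIRT1 KD library. All 3 were far above the additive level of 263 counts (adjusted p = 0.00178). UHRF1, which carries DNA methylation through replication, was at 1053, 1252 and 995 normalised counts in control, 671, 667 and 664 in SIRT1 KD, 1433, 1177 and 1284 in IGF2BP2 KD, and 1339, 1659 and 1277 in double KD libraries. SIRT1 KD libraries were the lowest, and double KD libraries overlapped those of IGF2BP2 KD (additive level 789 counts, adjusted p = 0.00602). MCM4, a subunit of the replicative helicase, was at 1889, 2126 and 1891 normalised counts in control, 1785, 1705 and 1700 in SIRT1 KD, 2380, 2054 and 2072 in IGF2BP2 KD, and 2750, 2873 and 2840 in double KD libraries, with every double KD library above every other (adjusted p = 0.00697). RFC4, UHRF1, MCM4 and MCM10 were stable. The list's count fell to 4 without control replicate 2, 7 without control replicate 3, 7, 6 and 8 without SIRT1 KD replicate 1, 2 or 3 and 7 without IGF2BP2 KD replicate 2 or 3. It rose to 26 without double KD replicate 2. Over all genes the number above the sum also moved, from 299 (1.70%) to 62 without control replicate 2. Without double KD replicate 2 it was 1065 (6.06%). The list's median stayed between 0.37 and 0.50 in all of these fits and was 0.37 with median-centred libraries. Of 42 mitosis genes 1 was above the sum and 33 had a positive interaction (median 0.12); 4 were above without double KD replicate 1, and 8 above and 1 below without double KD replicate 2. The difference between the 2 lists was not tested. Also, 0 of 34 replication-dependent histone genes tested were called by limma (4 at an unadjusted p under 0.05, 0 by edgeR and 0 by DESeq2, median 0.12; 1 below the sum and a median of 0.06 without double KD replicate 2), although histone genes may share reads among near-identical copies. The mitosis gene was MAD2L1, of the spindle checkpoint, at 1495, 1699 and 1630 normalised counts in control, 618, 551 and 631 in SIRT1 KD, 1495, 1122 and 1414 in IGF2BP2 KD, and 830, 804 and 910 in double KD libraries (interaction 0.77, adjusted p = 0.00697). Repair genes of the same direction were UNG, which removes uracil from DNA, and RMI2, a subunit of the complex that dissolves crossed DNA strands. UNG was at 1146, 1216 and 1178 normalised counts in control, 553, 542 and 580 in SIRT1 KD, 1396, 1330 and 1457 in IGF2BP2 KD, and 1075, 1095 and 1120 in double KD libraries. SIRT1 KD libraries were the lowest, and the double KD libraries lay between them and control (interaction 0.73, adjusted p = 6.3e-04). RMI2 was at 245, 258 and 252 normalised counts in control, 127, 109 and 118 in SIRT1 KD, 285, 233 and 265 in IGF2BP2 KD, and 233, 258 and 220 in double KD libraries (interaction 0.95, adjusted p = 0.00319).

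**Figure D4:**
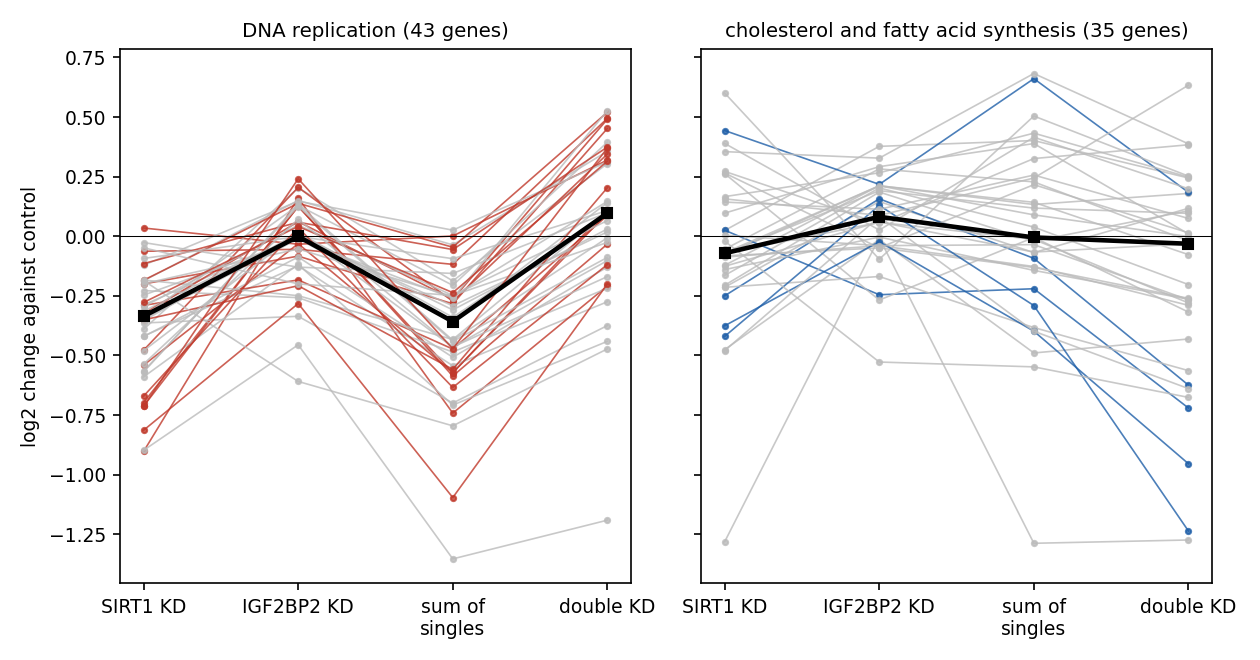
Log2 change against control of each gene of 2 lists in SIRT1 KD cells, in IGF2BP2 KD cells, as the sum of these, and in double KD cells; each line is a gene, the black line is the list's median, and genes called above or below the sum are red or blue. DNA replication genes (left) lie higher in double KD cells than their sums, and the 5 called cholesterol and fatty acid genes (right) lie lower.

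ATP6V1A, a catalytic subunit of the lysosomal proton pump, was at 2509, 2501 and 2594 normalised counts in control, 1058, 916 and 1111 in SIRT1 KD, 2624, 2314 and 2618 in IGF2BP2 KD, and 1495, 2513 and 1960 in double KD libraries. The double KD libraries lay above the SIRT1 KD libraries and differed widely among themselves, with replicate 2 at the control level. The additive level was 1016 counts and the interaction 0.94 (SE 0.19, adjusted p = 0.0183). It was 0.75 without double KD replicate 2 (adjusted p = 0.00171), and the call was lost without control replicate 2 or 3 or IGF2BP2 KD replicate 2 (adjusted p = 0.0576, 0.0517 and 0.0543). Of 21 pump subunits tested ATP6V0A1 was the other called member, below the sum at -0.47 (adjusted p = 0.0133, and 0.0518 without control replicate 2). Over all genes 2.86% were called.

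The 3′ UTR of ATP6V1A holds CTCAGATA, a word chosen in earlier work on these data because transcripts that fell with the SIRT1 hairpin carry it. Windows of 5 genes with a called interaction are shown, read 5′ to 3′ on the transcript's strand from GENCODE 29 transcripts (GRCh38), because the SIRT1 effect on these genes differed between backgrounds. Capitals mark the match to CTCAGATA or, where that is absent, to its 7-base part CTCAGAT or TCAGATA.
ATP6V1A: gcgaacctatgCTCAGATAttcatcgtaag
MAD2L1: tttacactttcCTCAGATAgtctgttgtca
RPN2: tacctggtgagCTCAGATAgtctctttctc
UNG: tgtgagctttaTCAGATAagagaccgaga
CMTM4: tccactcggatCTCAGATtggttcgttgt
All 5 matches lie in the last exon. That of ATP6V1A is at chr3:113811696-113811703 (plus strand, exon 15), that of RPN2 at chr20:37241497-37241504 (plus strand, exon 17) and that of UNG at chr12:109110567-109110573 (plus strand, exon 7). On the minus strand are those of MAD2L1 at chr4:120055915-120055922 (exon 5) and CMTM4 at chr16:66615570-66615576 (exon 5). All 5 genes fell with the SIRT1 hairpin and had an interaction above 0.

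Over 13120 genes with a searched 3′ UTR, 315 (2.40%) held CTCAGATA, 1923 (14.7%) held only a 7-base part and 10882 neither, on the transcript's strand alone. The 315 had a median change of -0.29 with the SIRT1 hairpin in control cells and -0.25 in IGF2BP2 KD cells, which share no library; the genes with a 7-base part had -0.15 and -0.12, and those with neither 0.02 and 0.05. Of the 315 genes 6.03% were called above the sum, against 3.43% and 1.83% in the other 2 classes, and 2.54%, 1.30% and 1.47% below it. Any of the words was found in 85 of 284 searched genes above the sum (29.9%), in 33 of 193 below it (17.1%) and in 17.1% of all searched genes. Among genes that fell with the SIRT1 hairpin the difference was smaller: 73 of 887 with a word (8.23%) and 103 of 1601 without one (6.43%) were above the sum. The words came from the SIRT1 KD and control libraries, which also enter the interaction, so these shares are a description. RPN2, a subunit of the enzyme that attaches sugar chains to new proteins, was at 6449, 6421 and 6698 normalised counts in control, 1235, 1139 and 1284 in SIRT1 KD, 7714, 7285 and 7599 in IGF2BP2 KD, and 1837, 1838 and 1827 in double KD libraries. Both groups with the SIRT1 hairpin were low, and the double KD lay above its additive level of 1406 counts (interaction 0.38, adjusted p = 0.0228, called in 5 of the 12 fits that leave out a library). The 2 scales disagreed on RPN2: on linear counts its interaction was -395 (adjusted p = 0.675). CMTM4, a membrane protein, was at 1337, 1439 and 1416 normalised counts in control, 830, 824 and 826 in SIRT1 KD, 1513, 1469 and 1432 in IGF2BP2 KD, and 1345, 1602 and 1385 in double KD libraries; only SIRT1 KD libraries were low (interaction 0.72, adjusted p = 0.00113).

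Genes of lipid synthesis were among those below the sum. Of 35 genes of cholesterol and fatty acid synthesis tested, 5 were below and 0 above (14.3% called, against 1.16% of all genes below the sum), with a median of -0.18. SCD, the desaturase that makes oleate, was at 40647, 37894 and 41351 normalised counts in control, 32228, 28775 and 31446 in SIRT1 KD, 37794, 39529 and 40677 in IGF2BP2 KD, and 21026, 18575 and 22417 in double KD libraries, lowest in double KD (interaction -0.56, adjusted p = 0.0074). FADS2 and FADS1, desaturases of polyunsaturated fatty acids, had interactions of -0.53 and -0.50; they overlap on opposite strands, so reads could be shared. DHCR7, the last enzyme of cholesterol synthesis, was also below (-0.48). SCD and FADS2 were stable. The list's count was 3 without any 1 of control replicates 1, 2 and 3, SIRT1 KD replicates 1 and 3 and IGF2BP2 KD replicates 1, 2 and 3, and 16 without double KD replicate 2. Over all genes the number below the sum was 204 with all libraries and 51 without control replicate 2. It was 706 (4.02%) without double KD replicate 2.

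Antioxidant and glycolytic genes also held calls below the sum. Of 22 NRF2 antioxidant targets tested 6 were below and 0 above (27.3% called, against 1.16% of all genes below the sum), but the list's median was -0.02. HMOX1, which breaks down heme, was at 406, 405 and 410 normalised counts in control, 1120, 976 and 1008 in SIRT1 KD, 389, 439 and 390 in IGF2BP2 KD, and 573, 589 and 650 in double KD libraries. It rose in both groups with the SIRT1 hairpin, with the double KD libraries between SIRT1 KD and control (interaction -0.77, adjusted p = 0.00213). PGD (-0.40) and TKT (-0.44) are enzymes of the pentose phosphate pathway. NQO1 (-0.41) and TXNRD1 (-0.33), both reductases, were below the sum as well. HMOX1 alone of the 6 was stable; the count was 3, 1 and 3 without control replicate 1, 2 or 3, 1 and 2 without SIRT1 KD replicate 1 or 3, and 3 and 2 without IGF2BP2 KD replicate 1 or 3. Of 37 glycolysis and hypoxia genes 5 were below the sum and 0 above (13.5% called, against 1.16% of all genes below the sum, median -0.19). KDM3A, a histone demethylase induced by hypoxia, was at 1312, 1307 and 1412 normalised counts in control, 1694, 1727 and 1696 in SIRT1 KD, 1625, 1641 and 1679 in IGF2BP2 KD, and 1484, 1379 and 1525 in double KD libraries. Each single KD raised it, and the double KD was not called against control (0.12, adjusted p = 0.152; interaction -0.52, adjusted p = 0.00602). ALDOC (-0.73), NDRG1 (-0.48), PDK1 (-0.41) and the glucose transporter SLC2A1 (-0.35) were the others. The count was 2 or 3 without control replicates 1 (3), 2 (2) or 3 (2), SIRT1 KD replicates 1 (2) or 3 (2) and IGF2BP2 KD replicates 1 (3), 2 (3) or 3 (2), and 16 without double KD replicate 2. Of all genes 4.02% were below the sum without double KD replicate 2.

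**Figure D5:**
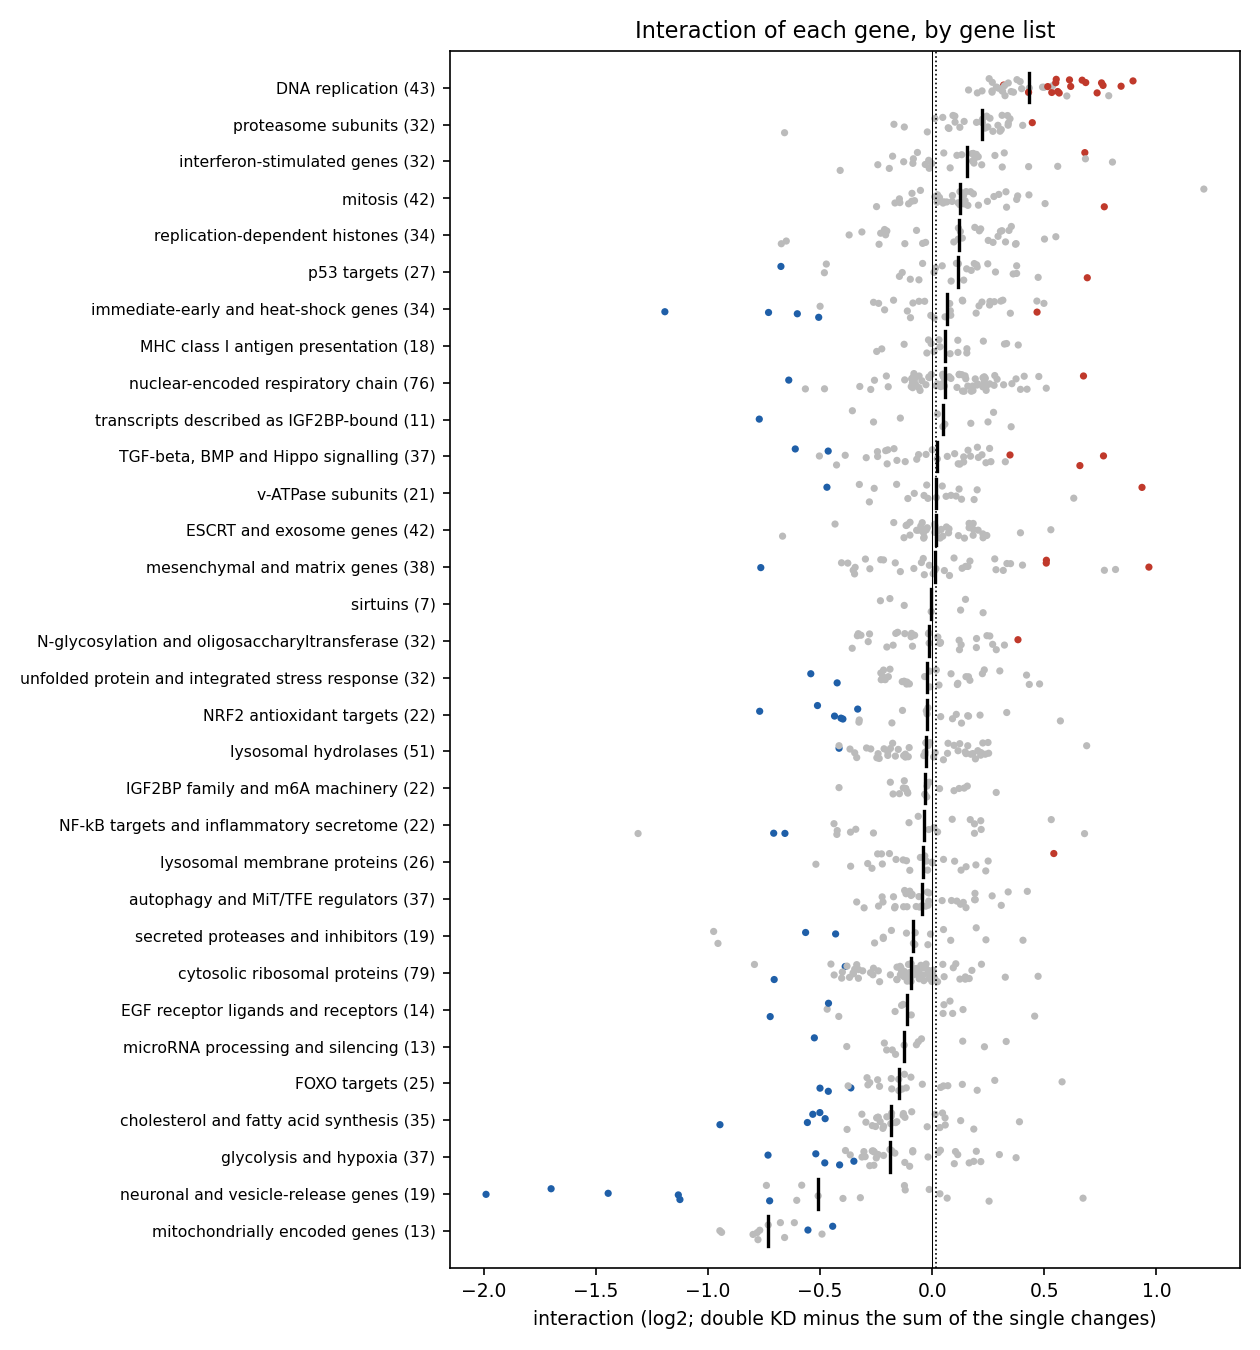
Interaction (horizontal axis, log2) of every tested gene in 32 gene lists, with the number of genes tested in brackets. Red and blue points are genes called above and below the sum, black bars are list medians and the dotted line is the median of all genes (0.02); DNA replication has the highest median (0.43) and the mitochondrially encoded genes the lowest (-0.73) with all 12 libraries; without double KD replicate 2 their median is -0.32 and the neuronal list's -0.54.

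Several genes that a single knockdown lowered stood higher in double KD cells than the sum. CYP26B1 (chromosome 2, 72129238 to 72148038), which breaks down retinoic acid, was at 129, 156 and 129 normalised counts in control, 84.4, 91 and 76.9 in SIRT1 KD, 103, 106 and 126 in IGF2BP2 KD, and 180, 231 and 177 in double KD libraries. Every double KD library lay above every other, against an additive level of 67.9 counts (interaction 1.50, SE 0.19, adjusted p = 6.3e-04). HTR1D, a serotonin receptor, was at 172, 158 and 187 normalised counts in control, 83.4, 58.5 and 55.8 in SIRT1 KD, 182, 159 and 172 in IGF2BP2 KD, and 121, 147 and 139 in double KD libraries. SIRT1 KD libraries were the lowest and double KD libraries lay between them and the rest (interaction 1.06, adjusted p = 0.0114). PLEKHG4, an exchange factor for small GTPases, was at 1209, 1331 and 1237 normalised counts in control, 544, 565 and 622 in SIRT1 KD, 1266, 1655 and 1441 in IGF2BP2 KD, and 1363, 1519 and 1137 in double KD libraries (interaction 1.01, adjusted p = 0.00202). EVA1A, a lysosomal and endoplasmic reticulum protein linked to autophagy, was at 275, 317 and 278 normalised counts in control, 259, 211 and 215 in SIRT1 KD, 162, 170 and 189 in IGF2BP2 KD, and 257, 334 and 267 in double KD libraries. Both single KDs lowered it and the double KD overlapped control (interaction 1.06, adjusted p = 0.00321). UAP1, which makes the sugar donor UDP-N-acetylglucosamine, was at 3049, 3134 and 3166 normalised counts in control, 1957, 1886 and 1908 in SIRT1 KD, 2818, 2630 and 2782 in IGF2BP2 KD, and 2554, 2712 and 2637 in double KD libraries (interaction 0.64, adjusted p = 6.3e-04). CPA4, a secreted carboxypeptidase, was at 1828, 1856 and 1894 normalised counts in control, 1705, 1565 and 1623 in SIRT1 KD, 1388, 1507 and 1420 in IGF2BP2 KD, and 1971, 2299 and 2081 in double KD libraries; both single KDs lowered it, and the double KD libraries lay above control (interaction 0.74, adjusted p = 6.7e-04).

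Further genes lay above the sum. ARID3A, a DNA-binding protein of the ARID family, was at 152, 159 and 137 normalised counts in control, 173, 189 and 183 in SIRT1 KD, 143, 144 and 121 in IGF2BP2 KD, and 309, 321 and 360 in double KD libraries. Neither single KD was called and every double KD library was above every other (interaction 0.99, adjusted p = 0.00279). ZNF367, a zinc finger protein, was at 428, 504 and 420 normalised counts in control, 413, 417 and 405 in SIRT1 KD, 648, 469 and 595 in IGF2BP2 KD, and 919, 1047 and 1005 in double KD libraries, with the double KD libraries again the highest (interaction 0.93, adjusted p = 0.0034). AEN, a nuclease induced by p53, was at 488, 459 and 460 normalised counts in control, 765, 794 and 754 in SIRT1 KD, 304, 315 and 294 in IGF2BP2 KD, and 782, 844 and 802 in double KD libraries. It rose with the SIRT1 hairpin in both backgrounds, by 0.71 in control cells and by 1.41 in IGF2BP2 KD cells (interaction 0.69, adjusted p = 0.00202). AEN was 1 of 27 p53 targets above the sum. BBC3, the pro-apoptotic PUMA, was the 1 below (-0.67, adjusted p = 0.0228, called in 5 of the 12 fits). All genes had 1.70% above and 1.16% below. Without double KD replicate 2 the list had 4 above and 3 below, where all genes had 6.06% and 4.02%. SPHK1, which makes the lipid signal sphingosine phosphate, had an interaction of 0.96 with double KD replicate 2 and 0.70 without it, and was called in 3 of the 12 fits.

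The values of 2 transcript groups depended on double KD replicate 2. All 13 mitochondrially encoded genes had a negative interaction, with a median of -0.73; leaving out double KD replicate 2 moved it to -0.32, and leaving out replicate 1 or 3 to -0.94 or -0.96. The test called 2 of them, MT-ND3 (-0.55, adjusted p = 0.0242) and MT-ND4L (-0.44, adjusted p = 0.0275), and 12 without that library, whose mitochondrial share was the low 1.18% given above. Both calls were lost without any 1 of control replicates 2 and 3, SIRT1 KD replicates 1 and 3 and IGF2BP2 KD replicates 2 and 3. Cytosolic ribosomal proteins had a median of -0.09 and 2 of 79 called below the sum. Without double KD replicate 2 these were -0.22 and 27, and without double KD replicate 1 the median was 0.00. Over all genes, calls below the sum also rose without double KD replicate 2, from 204 (1.16%) to 706 (4.02%). A rise in a list's count is therefore not particular to that list. RPS4X was the stable ribosomal protein gene, at 14436, 14099 and 15293 normalised counts in control, 15191, 13521 and 15244 in SIRT1 KD, 12146, 12001 and 12167 in IGF2BP2 KD, and 7006, 7558 and 7791 in double KD libraries (interaction -0.70, adjusted p = 6.3e-04). Its double KD libraries lay below all others, and its overlap with PIN4 and its pseudogene copies leave its count uncertain. The part of that library's low mitochondrial share in these values was not tested.

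Many lists held few or no departures, where 2.86% of all genes were called (10.1% without double KD replicate 2). With all 12 libraries limma called 0 of 7 sirtuins (1 at an unadjusted p under 0.05, 0 by edgeR, 0 by DESeq2), 0 of 22 genes of the IGF2BP family and m6A machinery (2, 0 and 1) and 0 of 37 autophagy and MiT/TFE regulators (4, 0 and 1). It also called 0 of 42 ESCRT and exosome genes (3, 0 and 2) and 0 of 18 genes of MHC class I antigen presentation (1, 0 and 0). Without double KD replicate 2 it called 0 sirtuins, 1 gene of the IGF2BP and m6A list below the sum, 2 autophagy genes above and 2 below, 3 ESCRT and exosome genes above and 1 below, and 1 antigen presentation gene above. Among 11 transcripts described as IGF2BP-bound, HMGA2, an oncofetal chromatin protein, was called below the sum, at 995, 957 and 995 normalised counts in control, 3525, 3792 and 3644 in SIRT1 KD, 1600, 1581 and 1591 in IGF2BP2 KD, and 3835, 2652 and 4093 in double KD libraries. The SIRT1 KD and double KD libraries overlapped (interaction -0.77, -0.58 without double KD replicate 2), and its call was lost without control replicate 2 or IGF2BP2 KD replicate 3 (adjusted p = 0.0592 and 0.0506). Among 32 proteasome subunits 28 had a positive interaction (median 0.22), and PSMD2 was called (0.45, adjusted p = 0.0228, in 5 of the 12 fits). Leaving out double KD replicate 2 gave 6 subunits above the sum and a median of 0.13, and leaving out double KD replicate 1 gave 6 and 0.29. HERC5, of 32 interferon-stimulated genes, was above the sum (0.68, adjusted p = 0.0132; 0.0519 without control replicate 2): its change was -1.01 in SIRT1 KD, -0.52 in IGF2BP2 KD and -0.84 in double KD cells. Without double KD replicate 2, 4 genes of that list were above the sum. The inflammatory secretome held IL24 (-0.71) and IL11 (-0.66) below the sum, on top of changes of -1.65 and -1.07 in IGF2BP2 KD cells. IL11 (adjusted p = 0.0483) was called in 1 of the 12 fits and IL24 in 11. On linear counts neither passed (adjusted p = 0.797 for IL11 and 0.627 for IL24).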

How the data were processed

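RNA-seq read counts per gene were analysed. The authors aligned with STAR to GRCh38.p13 and used CASAVA and DESeq2, per the submitters' processing notes; the deposited values are counts divided by size factors, a signal per gene whose steps gave back whole reads. Log2 ratios of each library to control, also deposited by the authors, served only to check that each column matched its library (12 of 12). Of 60649 genes, 17576 passed edgeR's filterByExpr (minimum count 10). From log2(normalised count + 1), a mean per group was fitted to all 12 libraries in limma 3.58.1 (R 4.3.3, empirical Bayes with trend and robust settings), with Benjamini-Hochberg adjustment over all genes and calls at 0.05, after a check on simulated data. edgeR 4.0.16 and DESeq2 1.42.0 were alternatives on recovered reads. The additive level is the sum of the single changes added to the control's log mean. Named genes were SIRT1, IGF2BP2, ATP6V1A, the 12 largest interactions in each direction that hold without double KD replicate 2, the 6 smallest adjusted p in each direction, the 6 largest changes in each direction called in double KD alone, and up to 3 members of each list; other list members called are also given, and some genes that the counts include are not reported here. Members, lists and words were chosen with earlier results of these data known. Depth was 15243152 to 22509142 reads. Other settings, including the replicate block, scaling, filters and left-out libraries, are in the closing section. The files hold 12 columns that name none of these samples, which were not used.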

Additional observations from a re-analysis of the deposited data

Results flagged for a closer look

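The SIRT1 hairpin changed 503 genes differently in cells with and without the IGF2BP2 hairpin, as tested by the interaction itself. For some of them each of the 2 changes was called and their signs were opposite. With the SIRT1 hairpin, MUC5AC (interaction -2.85), NR4A2 (-1.19), CAVIN2 (-0.85), COX7C (-0.64), TIMP3 (-0.56) and KDM3A (-0.52) rose in cells without the IGF2BP2 hairpin and fell in IGF2BP2 KD cells. RRM2 (0.55), CPA4 (0.74), EVA1A (1.06) and CYP26B1 (1.50) fell in the first and rose in the second. With the IGF2BP2 hairpin, MUC5AC (-2.85), PCLO (-1.12), NEDD9 (-1.04), LGALS12 (-1.03), COX7C (-0.64), KDM3A (-0.52) and TKT (-0.44) rose in cells without the SIRT1 hairpin and fell in SIRT1 KD cells. UAP1 (0.64), CPA4 (0.74) and RFC4 (0.90) fell in the first and rose in the second. Some of these interactions were not stable. Of the 12 fits that leave out a library, RRM2 was called in 2, LGALS12 in 5, TKT in 7, TIMP3 in 10 and PCLO in 11.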

How the results depend on the processing

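The number of departures was 926 with DESeq2 (532 above and 394 below the sum), 194 above and 380 below with median-centred libraries, 135 without limma's trend and robust settings (74 and 61) and 2577 with a weight per library (1571 and 1006). With one library left out it ranged from 113 to 1771, from 62 to 1065 above and from 51 to 706 below the sum. It was 583 with edgeR, 395 without a filter, 601 with a mean of at least 5 CPM, 545 with TMM scaling and 563 on linear counts, where 294 of the 503 kept their call. Pseudocounts of 0.5 and 5 gave 498 and 505. RPN2 was the named gene whose direction turned, to -395 on linear counts (adjusted p = 0.675). A replicate block gave 457 genes, 417 of them among the 503. The replicate numbers did not pair the libraries: deviations of the 18 same-numbered pairs correlated between -0.193 and 0.0996, and 6 of 12 libraries correlated best with their own number. With 3 libraries per group the median standard error of an interaction was 0.17. IL11, with a standard error of 0.17 and an interaction of -0.66, only just passed (limma adjusted p = 0.0483). Departures of several standard errors could therefore go uncalled here, also in the lists with few or no calls.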
